A study of Mus musculus with 8 samples.

Results

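Carbonic anhydrases are zinc enzymes that interconvert carbon dioxide and water with bicarbonate and a proton, and 9 of their mouse genes are described here in fasted liver: Car1, Car2, Car3, Car4, Car5a, Car8, Car12, Car13 and Car14. They are 9 of the 34547 genes summed from the deposited transcript values. The family was listed because earlier work on the same libraries had found Car3 to be higher with Nudt7, so the members were chosen by their reads and TPM with Nudt7 against GFP, and that difference is given below as a description. Of the 9 genes, 6 had enough reads to enter the fit across 13678 genes (Car2, Car3, Car5a, Car8, Car12 and Car14), and Car1, Car4 and Car13 did not.

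Liver RNA came from 8 C57BL/6J mice aged 11 to 12 weeks, all fasted for 24 h. At 8 weeks of age each had received 2.5e+11 particles of adeno-associated virus, a vector that delivers genes to the liver, in 150 µl by tail vein, and livers were taken 3 to 4 weeks later. In 4 mice the virus carried mouse Nudt7, a peroxisomal hydrolase of coenzyme A and acyl-CoAs, and in the other 4 it carried GFP, a fluorescent protein, so virus and fasting were common to both groups. The labels name neither the promoter in the vector nor the sex of the mice, and each title carries a number of its own, so the replicates were treated as separate animals; if they were not, the p-values measure only the spread between these samples.

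The libraries held 11187806 to 23640734 estimated reads. Nudt7 was at 1301, 1599, 3569 and 1555 CPM (estimated reads scaled to a common library size) in Nudt7 replicates 1 to 4, against 60.7, 75.9, 79.9 and 72.9 CPM in GFP replicates 1 to 4, as labelled. Nudt7 replicate 3 stood apart from the other libraries, at 63.1 on the first principal component (36.3% of the variance) against −19.9 to 2.8. Its genes with short transcripts averaged 0.42 log2 units higher, and those with long transcripts 0.36 log2 units lower (−0.36), than in the rest of its group. The values of Car3, Car2 and the gene lists are also given without it. The summed level of 7 hepatocyte markers (Alb, Ttr, Apoa1, Cps1, Cyp2e1, Tat and Hnf4a) was 61789 to 95632 CPM in every library.

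The members differ in where their proteins work. Car1, Car2, Car3 and Car13 encode cytosolic enzymes; Car5a encodes a mitochondrial one that supplies bicarbonate to pyruvate carboxylase and carbamoyl phosphate synthetase. Car4, Car12 and Car14 encode enzymes of the cell surface, and Car8 encodes a relative that does not hydrate carbon dioxide. Car3 is abundant in muscle, fat and liver and is a slow hydratase, and in rodent liver its level is known to depend on sex and growth hormone.

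The zinc site can be read from each coding sequence, and it is shown for the active enzymes with the most transcripts in these livers. The windows below, read from the GENCODE M21 transcripts on GRCm38, surround the codons of a pair of zinc-binding histidines, in capitals.
Car3: cgccaattcCATcttCACtggggctcctct
Car2: atccagtttCACtttCACtggggctcatct
Car5a: aagcagtttCATttcCACtggggagcaaca
Car14: gcccagctcCACctgCACtggggtcagaga
The first codon of the pair is CAT in Car3 and Car5a and CAC in Car2 and Car14, both histidine codons, and the other is CAC in all 4. The windows lie at chr3:14866841-14866870 (plus strand) for Car3, chr3:14895060-14895089 (plus) for Car2, chr8:121927134-121927163 (minus) for Car5a and chr3:95900297-95900326 (minus) for Car14. All are within a single coding exon.

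A further window is shown because Car3 differs there from the other active members with enough reads. It holds a conserved stretch of the active-site pocket, and the capitals mark the codon just before that stretch.
Car3: cacggctccTTCaccacgccgccctgcgag
Car2: cctggctctCTGaccactccgcctctgctg
Car5a: cctggctccCTCaccaccccgccacttgct
Car14: aacggctcaCTCacaactcccccctgctac
Car3 has TTC, a phenylalanine codon, and the other 3 have CTG or CTC, leucine codons. Phenylalanine at this place in the pocket is known to contribute to the low carbon dioxide hydratase activity of Car3. The windows lie at chr3:14870114-14870143 (plus strand) for Car3, chr3:14897986-14898015 (plus) for Car2, chr8:121918042-121918071 (minus) for Car5a and chr3:95899485-95899514 (minus) for Car14.

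Car3, in the cytosolic branch, showed the widest spread of the family. In TPM, which is scaled by transcript length and so can be compared between genes, it was at 5.21, 9.40, 15.4 and 4.82 in GFP replicates 1 to 4. In Nudt7 replicates 1 to 4 it was at 59.1, 27.1, 61.9 and 48.6 TPM. The lowest Nudt7 liver was above the highest GFP liver, so the groups did not overlap, and Nudt7 replicate 2 was the lowest of its group. The means were 49.2 ± 15.8 TPM with Nudt7 and 8.71 ± 4.92 TPM with GFP (SD, n = 4 each). These levels rested on 313 to 928 reads per library with Nudt7 and 74 to 180 with GFP. On the count scale the log2 fold change was 2.62 (SE 0.39, 95% interval 1.77 to 3.47), or 6.16-fold. Whether a bulk difference comes from more cells with a transcript or from more RNA per cell cannot be told apart for any gene here.

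Car3 was 1 of 6 genes called higher with Nudt7 by edgeR's quasi-likelihood test with Benjamini-Hochberg adjustment over all genes (adjusted p = 0.0423). Its higher level in earlier work on the same libraries is what led to this family. No other of the 6 fitted members passed. Over all 13678 genes, 0.0439% were called higher, 0.0731% lower and 0.117% in either direction. Nothing is read from the members' count beside these shares, since the same contrast led to the family. The call was lost in 9 of 14 alternative analyses, with log2 fold changes between 2.41 and 3.03 throughout. It was lost without Nudt7 replicate 1 (adjusted p = 0.112), Nudt7 replicate 3 (0.162, with a log2 fold change of 2.41), Nudt7 replicate 4 (0.0626), GFP replicate 1 (0.141), GFP replicate 2 (0.188) or GFP replicate 4 (0.126), all in the same edgeR fit.

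Car2, the fast cytosolic enzyme of red cells, bile ducts and other epithelia, was at 3.71, 4.51, 4.79 and 5.53 TPM in GFP replicates 1 to 4. With Nudt7 it was at 8.81, 8.55, 10.5 and 7.45 TPM. Again the groups did not overlap, and the means were 8.83 ± 1.26 TPM with Nudt7 and 4.63 ± 0.753 TPM with GFP (SD, n = 4 each). The reads behind them were few, 75 to 165 per library with Nudt7 and 47 to 132 with GFP. The log2 fold change was 0.98 (SE 0.25, 95% interval 0.44 to 1.53), or 1.98-fold, and did not pass in edgeR; it passed with DESeq2 (log2 fold change 1.0) and with limma-voom with sample weights (0.83), which called 1.18% and 0.731% of all the genes they tested. Without Nudt7 replicate 3, where Car2 reached 13.6 CPM against 6.62 to 7.73 CPM in the rest of the group, it was 0.70.

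Car2 and Car3 were the only members whose groups did not overlap in CPM, 2 of 6 that were fitted. Among all genes fitted, 5.75% had groups that did not overlap and 2.74% had them with Nudt7 higher. These shares stand beside the count as background only.

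Car1, the other abundant red cell enzyme, was at 0.322, 0.559, 1.43 and 0.316 TPM in GFP replicates 1 to 4 and at 0.831, 0.133, 0.567 and 1.31 TPM with Nudt7. That is 1 to 14 reads per library, and the groups overlapped. Its level is uncertain for another reason, since 20.1% of the 31-base words of its transcripts also occur in the pseudogene Gm5843. The same measure was 0.42% for Car3 and 0% for Car2.

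Car13, a cytosolic enzyme of several epithelia and the reproductive tract, had 1 to 4 reads per library. It was at 0.146 ± 0.0748 TPM with GFP and 0.149 ± 0.0778 TPM with Nudt7 (SD, n = 4 each). A difference in Car13 or Car1 was not detectable at this depth.

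Car5a, the mitochondrial enzyme of hepatocytes, was among the most abundant members. It was at 15.5, 17.4, 25.0 and 7.92 TPM in GFP replicates 1 to 4 and at 20.4, 12.5, 19.3 and 21.7 TPM with Nudt7. The groups overlapped, with GFP replicates 3 and 4 holding both the highest and the lowest value. The log2 fold change was 0.38 (SE 0.29, 95% interval −0.25 to 1.0), so the interval held values from slightly lower to about that of Car2. The other mitochondrial gene, Car5b, was at 2.30 ± 0.877 TPM with GFP and 2.36 ± 0.615 TPM with Nudt7, with a log2 fold change of 0.17 (SE 0.28).

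Car14, a membrane enzyme of hepatocytes, was the most abundant member with GFP. It was at 17.3, 19.5, 28.6 and 11.8 TPM in GFP replicates 1 to 4 and at 21.03, 16.3, 18.03 and 19.8 TPM with Nudt7. All 4 Nudt7 livers lay inside the range of the GFP livers. The log2 fold change was 0.11 (SE 0.22, 95% interval −0.38 to 0.60), and it was −0.03 without GFP replicate 4.

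Car12 and Car4, the other cell surface enzymes, were near the limit of detection. Car12 was at 0.463 ± 0.130 TPM with GFP and 0.733 ± 0.261 TPM with Nudt7 (SD, n = 4 each), from 10 to 33 reads per library. Its log2 fold change was 0.44 (SE 0.29, 95% interval −0.20 to 1.09). Car4, which is anchored to the membrane of capillary and epithelial cells, had 1 read in GFP replicate 1, 2 in GFP replicate 4 and none elsewhere. Because 3 reads over the Nudt7 group correspond to 0.0568 CPM, no fold is given for Car4.

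Car8, the acatalytic relative known as a partner of the inositol trisphosphate receptor, was at 8.74, 7.70, 8.68 and 5.98 TPM in GFP replicates 1 to 4. With Nudt7 it was at 11.5, 7.53, 8.10 and 10.5 TPM, and the groups overlapped. The log2 fold change was 0.36 (SE 0.16, 95% interval 0.02 to 0.71) and was not called after adjustment.

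**Figure D1:**
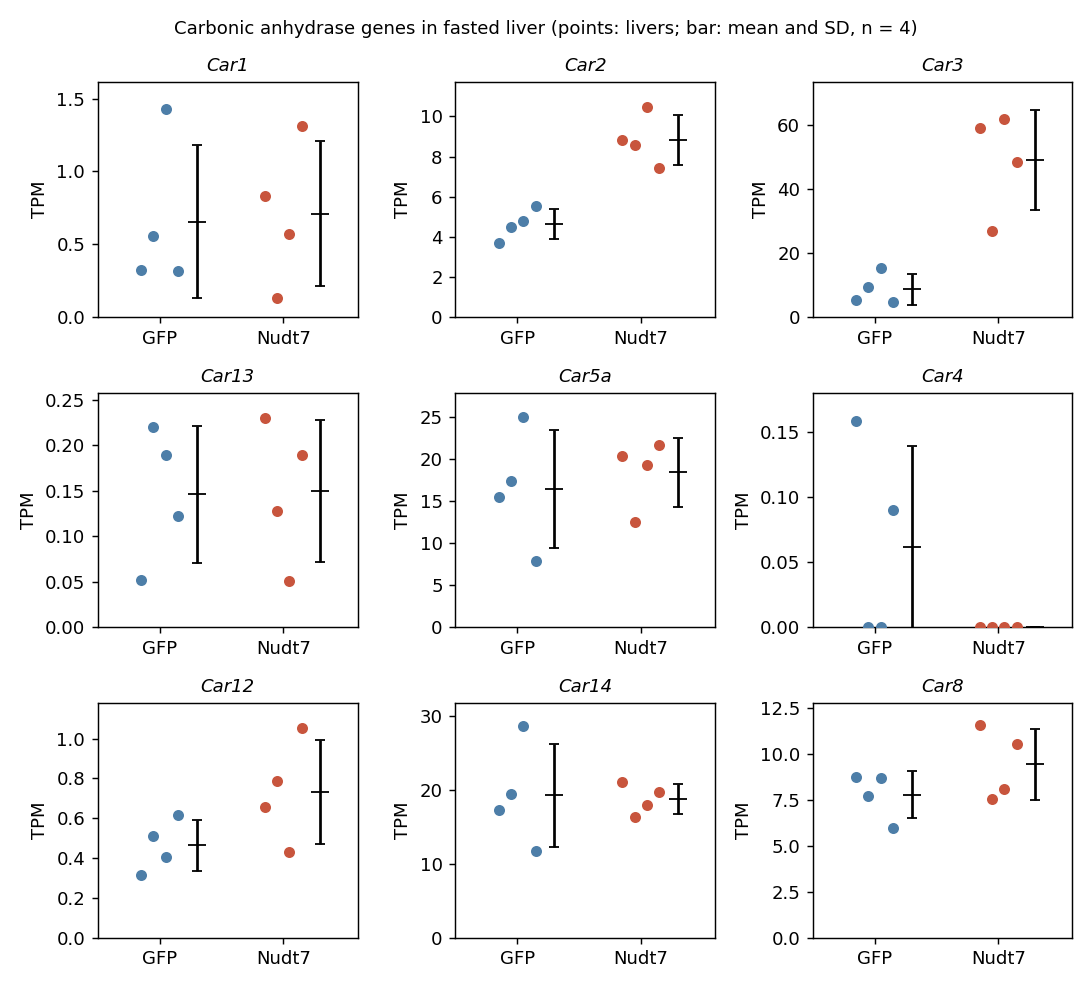
TPM of the 9 carbonic anhydrase genes, with 1 point per liver (GFP blue, Nudt7 red) and the mean and SD of each group beside the points (n = 4). Each panel has its own linear axis from 0, and the groups stand clear of each other for Car3 (4.82 to 15.4 against 27.1 to 61.9 TPM) and Car2 (3.71 to 5.53 against 7.45 to 10.5 TPM).

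**Figure D2:**
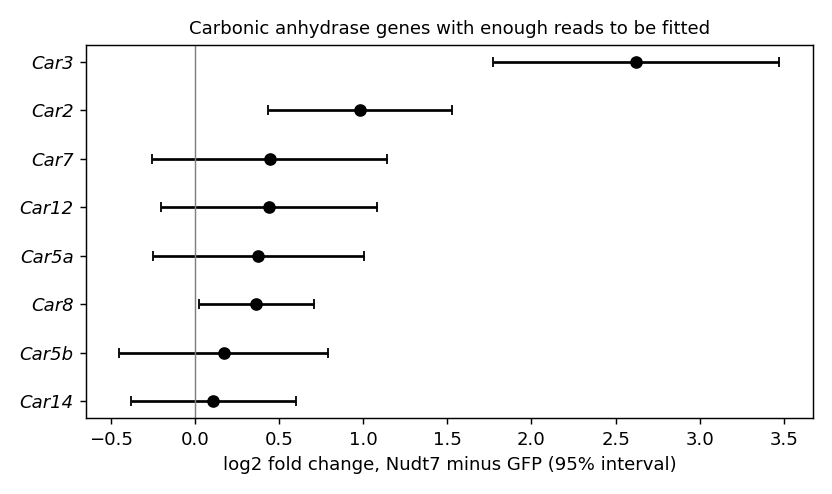
Log2 fold changes, Nudt7 minus GFP, with 95% intervals from the edgeR fit, for the 6 members and the 2 other carbonic anhydrase genes (Car5b and Car7) that had enough reads. Car3 lies at 2.62, Car2 at 0.98 and the rest between 0.11 and 0.44, where only the interval of Car8 excludes 0.

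Because Car3 differed and the larger members differed little, the make-up of the family differed between the groups. The order with GFP was Car14, Car5a, Car3, Car8, Car2, Car1, Car12, Car13 and Car4 by mean TPM. Car14 was above Car5a in 4 of 4 GFP livers although their ranges overlapped, and Car3 was above Car8 in 2 of 4. With Nudt7, Car3 came first in 4 of 4 livers with no overlap with Car14. Below it, Car14 and Car5a could not be ordered (2 of 4 livers each way), nor could Car8 and Car2.

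Car3 made up 10.2, 15.7, 18.2 and 12.9% of the summed TPM of the 9 genes in GFP replicates 1 to 4. With Nudt7 it made up 48.2, 37.1, 52.1 and 43.98%. The mean share of Car3 was thus 45.3 ± 6.4% with Nudt7 and 14.3 ± 3.49% with GFP (SD, n = 4 each). Car14 made up 33.0 ± 1.04% with GFP, within a narrow range of livers, and 18.1 ± 3.02% with Nudt7. The share of Car5a was 27.5 ± 4.17% with GFP and 17.4 ± 1.5% with Nudt7. Car2 had a similar mean share in both groups, 8.83 ± 4.12% with GFP and 8.62 ± 2.26% with Nudt7, although its level was higher, since the sum was higher too. The GFP mean leans on replicate 4, at 14.9%, with the other GFP livers at 5.66 to 7.54%.

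The sum of the 9 genes was 106 ± 22.7 TPM with Nudt7 and 58.2 ± 19.9 TPM with GFP. Without Car3 the remaining 8 genes summed to 57.1 ± 7.96 TPM and 49.5 ± 15.2 TPM, a difference smaller than the SD of the GFP livers. Among 21957 protein-coding genes ordered by mean TPM, Car3 stood at place 7033 with GFP and 1748 with Nudt7. Car14 stood at 4207 with GFP and 4022 with Nudt7.

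**Figure D3:**
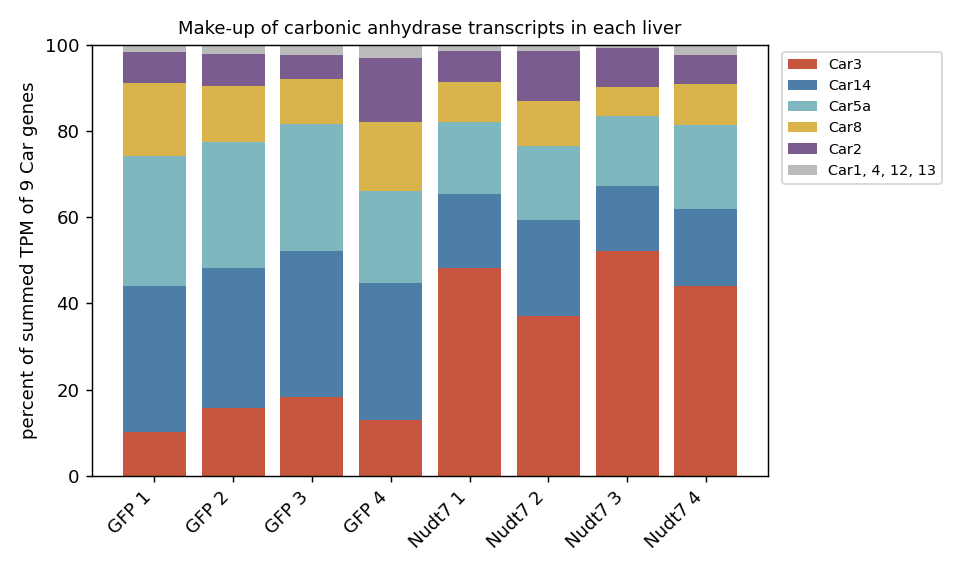
Share of each carbonic anhydrase gene in the summed TPM of the 9 genes, with 1 stacked bar per liver; Car1, Car4, Car12 and Car13 are drawn as a single grey segment. The Car3 segment takes 10.2 to 18.2% in the 4 GFP livers and 37.1 to 52.1% in the 4 Nudt7 livers.

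Within a group, some livers were high or low in several members at once, here in log2 CPM. GFP replicate 3 was the highest GFP liver for Car3, Car5a and Car14, by 0.93, 0.61 and 0.63 log2 units over the mean of its group. GFP replicate 4 was the lowest for Car5a (−0.81), Car14 (−0.52) and Car8 (−0.28). Among the Nudt7 livers, replicate 2 was the lowest for Car3 (−0.83), Car5a (−0.65), Car14 (−0.36) and Car8 (−0.36). Car2 was also lowest there (−0.34), and it was highest in Nudt7 replicate 3 (0.68), as were Car3 (0.63), Car5a (0.42) and Car14 (0.26). In TPM, Nudt7 replicate 3 was highest for Car3 and Car2, but Car5a was highest in replicate 4 and Car14 in replicate 1. Car2 was then lowest in Nudt7 replicate 4 (7.45 TPM, against 8.55 TPM in replicate 2). In the GFP livers Car2 went another way, highest in replicate 4 (0.39).

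Most Car3 reads were assigned to its coding transcript. That transcript, of 1679 bases, took 80.8 to 95.5% of the reads in every library, with means of 86.9 ± 4.22% with Nudt7 and 91.0 ± 3.70% with GFP. A retained-intron transcript of 1395 bases took 12.0 ± 3.44% with Nudt7 and 8.96 ± 3.70% with GFP, ranges that overlap, and reached 17.1% in Nudt7 replicate 4. Another, of 804 bases, took 2.28% in Nudt7 replicate 1, 2.12% in Nudt7 replicate 4 and 0 in the other 6 livers. The main coding transcript of Car2 took 84.7 to 100% of its reads, and that of Car14 took 90.3 to 97.0%. Car12 was different: 94.6 to 100% of its few reads were assigned to a retained-intron transcript of 3263 bases, so its TPM is hardly a measure of coding messenger RNA.

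Car13, Car1, Car3 and Car2 are neighbours on chromosome 3, in a cluster of 259.0 kb on GRCm38 (14641727 to 14900770). Car3 (14863512 to 14872523) and Car2 (14886273 to 14900770) are both on the plus strand, with 13.8 kb between the end of Car3 and the start of Car2. The pair whose groups did not overlap is thus a pair of adjacent genes, while Car1 and Car13 in the same cluster had too few reads to be fitted. Whether other genes of the annotation overlap Car3 or Car2 was not tested. The nearest fitted gene on the side of Car13, 1810022K09Rik, was at 19.3 ± 7.54 CPM with Nudt7 and 15.6 ± 2.79 CPM with GFP (log2 fold change 0.30, SE 0.23). On the other side, 1319.7 kb from the start of Car3, Ythdf3, which encodes a reader of methylated adenosine in RNA, was at 67.6 ± 17.6 CPM with Nudt7 and 75.7 ± 11.5 CPM with GFP (log2 fold change −0.16, SE 0.20). Neither neighbour passed the test.

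Of the other members, Car14 lies elsewhere on chromosome 3 (95897768 to 95904691, minus strand) and Car5a on chromosome 8 (121916126 to 121944904, minus strand). Car8 lies on chromosome 4 (8143362 to 8239041, minus strand), Car12 on chromosome 9 (66713686 to 66766845, plus strand) and Car4 on chromosome 11 (84957786 to 84966044, plus strand).

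**Figure D4:**
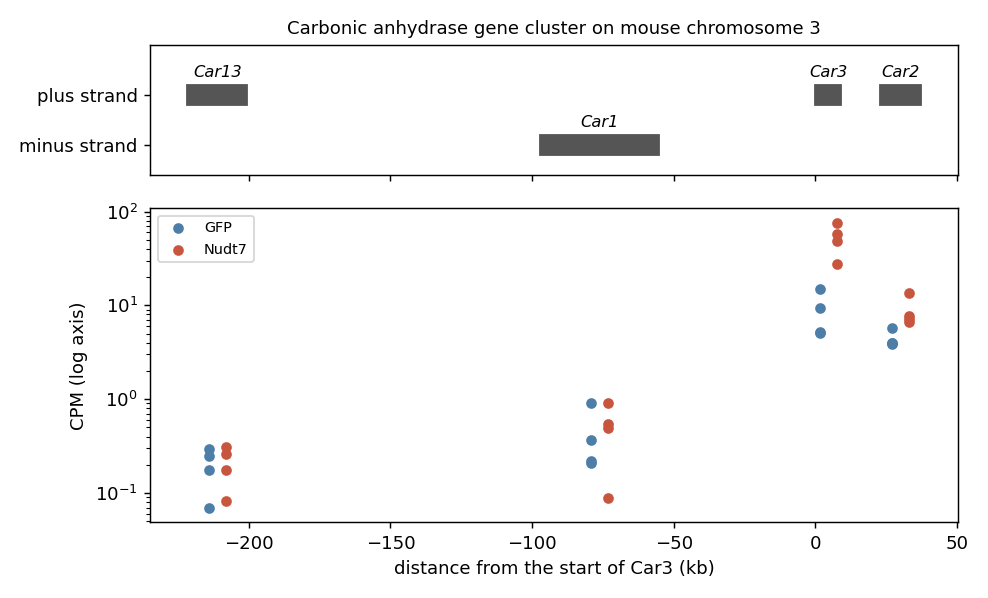
Map of the cluster on mouse chromosome 3 (upper panel, boxes are gene spans by strand) over the CPM of each of its genes in the 8 livers (lower panel, log axis, GFP blue, Nudt7 red), against distance from the start of Car3 in kb. Car3 (5.12 to 15.1 CPM with GFP, 27.6 to 76.4 with Nudt7) and Car2 (3.88 to 5.74 and 6.62 to 13.6) separate by group, and Car13 and Car1 stay below 1 CPM in every liver.

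Genes with profiles over the 8 livers most like that of Car3 were found by the root mean squared difference of log2 CPM. Each gene was centred on its own mean. The 12266 genes compared averaged at least 1 CPM, with clone and predicted names left out (median difference 1.46 log2 units). The nearest was Hsd3b3, a steroid dehydrogenase gene of a family with close copies, at 0.45 log2 units. It was at 42.6 ± 19.2 CPM with Nudt7 and 9.09 ± 5.67 CPM with GFP, and like Car3 it was low in GFP replicates 1 and 4 and lowest of its group in Nudt7 replicate 2. Others near it were Ly6d, a surface protein gene (0.64), the carboxylesterase gene Ces2c (0.70), the aldolase gene Aldoc (0.72) and the acetyltransferase family gene Nat8f5 (0.73). The other members were farther away, with Car2 at 1.03 (place 68), Car5a at 1.16 (place 231) and Car14 at 1.28 (place 985). The transgene itself, Nudt7, was at 1.15 (place 202). This measure holds the difference between the groups and so is a description.

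**Figure D5:**
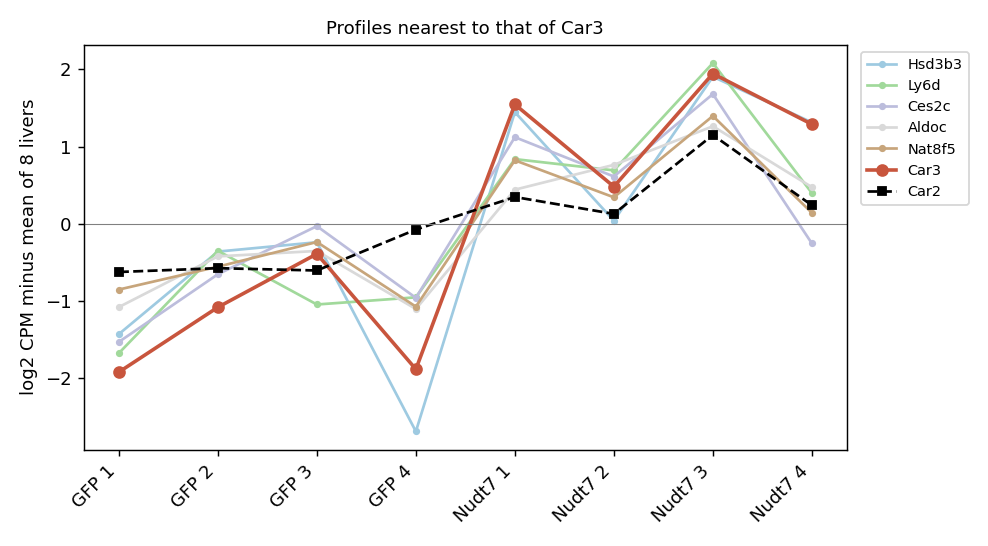
Log2 CPM minus the mean of the 8 livers for Car3 (thick red line), 5 of the genes nearest to it and Car2 (dashed), by liver; the lines only join the points of a gene. Car3 runs from −1.92 in GFP replicate 1 to 1.95 in Nudt7 replicate 3, and Car2 from −0.62 to 1.15 in the same livers.

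The level of Car3 did not follow that of the transgene within the Nudt7 group in every liver. Nudt7 replicate 3 was highest in both (3569 CPM of Nudt7, 76.4 CPM of Car3), but replicate 1 had the lowest Nudt7 level (1301 CPM) and the second highest Car3 level (57.9 CPM). Replicate 2 had the lowest Car3 level, 27.6 CPM, at 1599 CPM of Nudt7.

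The rest of the carbonic anhydrase family was low. Besides Car5b, Car7, a cytosolic enzyme best known from brain, was at 0.802 ± 0.151 TPM with GFP and 1.05 ± 0.310 TPM with Nudt7 (log2 fold change 0.44, SE 0.32). Car9, Car10, Car11 and Car15 were too low to be fitted, and Car6, the secreted salivary enzyme, had 1 read in all 8 libraries. Ptprg, a receptor phosphatase with a carbonic anhydrase-like domain, was at 34.7 ± 4.05 CPM with GFP and 32.4 ± 8.06 CPM with Nudt7.

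Genes that carry or use bicarbonate and protons were not called. By edgeR, 0 of 9 fitted bicarbonate transporter genes passed (1 at an unadjusted p under 0.05, beside 8.28% of all genes, and 0 of 8 with DESeq2). Their median log2 fold change was −0.11, beside −0.001 over all genes. The 3 with the smallest adjusted p were Slc4a8 (−0.59, SE 0.25), Slc26a3 (−0.40) and Slc26a11 (−0.20). Of 9 fitted genes of proton and lactate transport, 0 passed with edgeR (2 unadjusted, 0 of 8 with DESeq2), with a median of 0.18. They included Slc16a1, the lactate and ketone body transporter, at a log2 fold change of 0.34 (SE 0.15).

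Car5a supplies bicarbonate to carboxylases and the urea cycle. Of 17 fitted genes of these, 0 passed with edgeR (2 unadjusted, beside 8.28% of all genes, and 0 with DESeq2, beside 1.18%). Their median log2 fold change was 0.01, with 9 positive and 8 negative values. Otc, the urea cycle enzyme that makes citrulline, was at 157 ± 23.7 CPM with Nudt7 and 110 ± 23.2 CPM with GFP (log2 fold change 0.51, SE 0.17). Cps1, which takes up bicarbonate at the start of the cycle, had a log2 fold change of −0.45 (SE 0.19), the opposite sign.

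Since Car3 in rodent liver is known to depend on growth hormone and sex, a list of the growth hormone axis and male-biased liver genes was set beside it. By edgeR 0 of 19 fitted genes passed (8 unadjusted, beside 8.28% of all genes, and 4 of 18 with DESeq2, beside 1.18% of all genes). The signs of the pooled list were mixed, with 12 positive and 7 negative log2 fold changes and a median of 0.29. Negative values were those of the growth hormone axis genes Socs2, Cish, Igf1, Stat5b and Igfals and of the male-biased genes Hsd3b5 and Cspg5. Ghr and Stat5a of the axis, and all other male-biased genes of the list, were positive. Cyp4a12b, a male-biased fatty acid hydroxylase with a close copy, was at 128 ± 37.3 CPM with Nudt7 and 64.9 ± 10.4 CPM with GFP (log2 fold change 0.98, SE 0.21, adjusted p = 0.132 in edgeR). Socs2, which is induced by growth hormone and dampens its signal, was at 8.63 ± 5.64 CPM with Nudt7 and 35.0 ± 13.2 CPM with GFP (log2 fold change −2.02, SE 0.44, adjusted p = 0.164 in edgeR). Cish, of the same family, was at 5.83 ± 2.99 CPM with Nudt7 and 13.8 ± 3.56 CPM with GFP (log2 fold change −1.25, SE 0.32, adjusted p = 0.238 in edgeR).

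Of 16 female-biased liver genes 7 were fitted and 0 passed with edgeR, with a median log2 fold change of −0.70. In edgeR 4 had an unadjusted p under 0.05, beside 8.28% of all genes. DESeq2 called 3 of the 5 it tested, beside 1.18% of all genes. Groups did not overlap in CPM for 2 of the 7, both lower with Nudt7, beside 5.75% of all genes in either direction. Trim24, a transcriptional cofactor, was at 42.4 ± 7.64 CPM with Nudt7 and 68.7 ± 3.62 CPM with GFP, without overlap (log2 fold change −0.70, SE 0.14, adjusted p = 0.106 in edgeR). Fmo2 (−1.22, SE 0.27) and Cux2 (−0.85, SE 0.21) were the next by adjusted p. Each of the 8 livers held at least 18.7 CPM of the Y-linked genes Kdm5d, Eif2s3y and Ddx3y.

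Car3 and Car2 are known to be higher around the central vein in rodent liver, so genes of both zones were counted. Of 9 fitted pericentral genes 8 had a positive and 1 a negative log2 fold change (median 0.34), and 0 passed with edgeR (2 unadjusted, 1 with DESeq2). The shares over all genes were 8.28% unadjusted in edgeR and 1.18% with DESeq2. Oat, a pericentral enzyme of ornithine metabolism, was at 829 ± 24.6 CPM with Nudt7 and 612 ± 84.2 CPM with GFP (log2 fold change 0.44, SE 0.14, adjusted p = 0.386 in edgeR). Of 10 fitted periportal genes 3 were positive and 7 negative (median −0.13), and 0 passed with edgeR (1 unadjusted, 0 with DESeq2). Pck1, the periportal enzyme of gluconeogenesis, had a log2 fold change of −0.57 (SE 0.23). Over all 13678 genes 49.8% had a positive fold change.

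Car1 and Car2 are also genes of red cells, and 7 of 10 erythroid markers were fitted, 7 of them with a positive log2 fold change (median 0.62). With edgeR 0 passed (0 unadjusted, beside 8.28% of all genes, and 0 with DESeq2, beside 1.18%). Their summed level was 1817 CPM in Nudt7 replicate 3 and 305 to 645 CPM in the other 7 livers. Without that library the signs were 4 positive and 3 negative and the median was 0.06, so the direction of the erythroid list rests on it. It also had the highest Car2 level, and without it Car2 was at 6.62 to 7.73 CPM with Nudt7, still above the 3.88 to 5.74 CPM of the GFP livers.

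Bile duct cells make Car2 as well. The summed level of 6 cholangiocyte markers was 31.8 to 42.5 CPM with Nudt7 and 17.4 to 29.4 CPM with GFP, without overlap, so it was higher in the group where Car2 was higher. Within the Nudt7 livers replicate 3 was highest in both, at 42.5 CPM of the markers and 13.6 CPM of Car2. The lowest Nudt7 liver was replicate 4 for the markers (31.8 CPM) and replicate 2 for Car2 (6.62 CPM). Within the GFP livers the marker sum went against Car2. It was lowest in replicate 4 (17.4 CPM), where Car2 was highest (5.74 CPM), and highest in replicate 3 (29.4 CPM), where Car2 was at 3.93 CPM. Of the 5 that were fitted 4 had a positive log2 fold change (median 0.49), and 0 passed with edgeR (2 unadjusted, 1 of 4 with DESeq2). The shares over all genes were 8.28% unadjusted in edgeR and 1.18% with DESeq2. Spp1, a secreted phosphoprotein of bile duct cells and of others, was at 14.9 ± 4.52 CPM with Nudt7 and 6.86 ± 1.33 CPM with GFP (log2 fold change 1.13, SE 0.22, adjusted p = 0.105 in edgeR). Of the 5 fitted markers, Spp1 alone had groups that did not overlap, beside 5.75% of all genes. The keratin genes Krt19 and Krt7 had log2 fold changes of 0.49 and −0.05. The part of bile duct cells, or of red cells, in the Car2 difference was not tested.

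Fat and muscle are known to hold much Car3, so their markers were measured too. Of the muscle markers Mb, Myh2 and Myh4 were at 0 in all 8 livers, and the summed level of the 11 muscle markers was at most 2.22 CPM, against 27.6 to 76.4 CPM of Car3 with Nudt7. Of the fat markers Lep was at 0 in all livers, and Adipoq reached 0.522 CPM in 1 GFP liver. The summed level of the 7 fat markers, mostly Fabp4, was 9.68 to 17.0 CPM with Nudt7 and 10.5 to 35.6 CPM with GFP, where Car3 itself was at 5.12 to 15.1 CPM. The part of fat or muscle tissue in the Car3 levels was not tested. Of the 2 that were fitted, Fabp4 had a log2 fold change of −0.58 (SE 0.35) and Plin1 of 0.02 (SE 0.32).

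Of 7 endothelial markers, which bear on Car4, 1 had a positive and 6 a negative log2 fold change (median −0.11; 0 passed with edgeR, 1 unadjusted, 0 with DESeq2). The 7 hepatocyte markers had 2 positive and 5 negative values (median −0.20), and 0 passed with edgeR (3 unadjusted, 1 with DESeq2). The shares over all genes were 8.28% unadjusted in edgeR and 1.18% with DESeq2. Tat, the glucocorticoid-induced tyrosine aminotransferase, was at 1556 ± 449 CPM with Nudt7 and 2800.2 ± 485 CPM with GFP (log2 fold change −0.85, SE 0.21). Hnf4a was at 667 ± 46.5 CPM with Nudt7 and 901 ± 125 CPM with GFP (log2 fold change −0.43, SE 0.14). For these 2 of the 7 hepatocyte markers the groups did not overlap, beside 5.75% of all genes.

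With limma-voom with sample weights, 1 gene was called in each of the female-biased, cholangiocyte and hepatocyte lists and 0 in the other lists beside the carbonic anhydrases. That tool called 0.731% of all genes. The 2 fitted fat markers were called by none of the 3 tools.

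Without Nudt7 replicate 3, an analysis of the lists added after seeing the data, the median log2 fold change was −0.05 for bicarbonate transport, 0.31 for proton and lactate transport and 0.04 for carboxylases and the urea cycle. It was 0.24 for the growth hormone and male-biased list (12 positive, 7 negative), −0.59 for the female-biased list (3 positive, 4 negative), 0.33 for pericentral and −0.25 for periportal genes. Of the cell type markers, the median was 0.32 for cholangiocytes (5 of 5 positive), −0.05 for endothelial cells, −0.38 for hepatocytes and −0.37 for fat, and that of all genes was 0.0038. By edgeR 0 genes of these lists passed.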

How the data were processed

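RNA libraries were made from 500 ng of liver RNA with a stranded kit and 9 cycles of PCR, per the labels' protocols. The submitters' processing notes name Salmon, FastQC, DESeq2 and build GRCm38 for the authors' own steps, with the versions and index not given in the sources used here. Per the file headers, each deposited file holds estimated counts and TPM per transcript. Of 109282 transcripts, 107987 (98.8%) were given a gene by GENCODE M21, 96.0% with the same version number, and the 1295 others, with 0.552 to 1.057% of reads, were left out.

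Both units were summed per gene, and estimated counts were rounded. The 2 groups were compared with edgeR 4.0.16 (R 4.3.3): quasi-likelihood test, robust, TMM scaling, filterByExpr, no covariate, two-sided, Benjamini-Hochberg threshold 0.05. CPM uses TMM-scaled library sizes. DESeq2 1.42.0, limma-voom 3.58.1 with sample weights, other scalings, filters and offsets, and leaving out each library were the alternatives. A gene at 0 in a group has a floor of 3 reads over the group. Intervals of folds include variation between livers; the floor covers counting error only, and PCR reads without molecular identifiers are not independent molecules. Log2 profiles used a prior count of 2. The tests were tried on simulated data.

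The members and gene lists were chosen with earlier results of these data known. Named are all 9 members, the other carbonic anhydrase genes, of each list the 3 fitted genes, or fewer, of smallest adjusted p (others named were chosen after their values were seen), the 6 nearest profiles to Car3 (1 of them is not reported here), the nearest fitted gene on each side of the cluster, and Nudt7. Lists cover bicarbonate, proton and lactate transport, carboxylases and the urea cycle, growth hormone and sex bias, liver zones and 6 sets of cell type markers. Replicates were numbered in accession order.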

Additional observations from a re-analysis of the deposited data

Results flagged for a closer look

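Livers that lay far from the other 3 of their group were looked for in 44 genes in each group, and 9 cases were found; chance alone gives about 1 in 20 groups. Among the carbonic anhydrases, Car2 was at 13.6 CPM in Nudt7 replicate 3 against 6.62 to 7.73 CPM in the rest of the group, and at 5.74 CPM in GFP replicate 4 against 3.88 to 4.02 CPM. In TPM these livers lay nearer to their groups, at 10.5 against 7.45 to 8.81 TPM and at 5.53 against 3.71 to 4.79 TPM. Car7 was at 1.73 CPM in Nudt7 replicate 3 against 0.937 to 1.06 CPM. In the same library Nudt7 was at 3569 CPM against 1301 to 1599 CPM, and the beta globin gene Hbb-bt at 108 CPM against 17.0 to 32.2 CPM. The 4 other cases were Oat at 793 CPM in Nudt7 replicate 1 (840.0 to 843 CPM in the rest), Lyve1 at 32.3 CPM in Nudt7 replicate 1 (46.7 to 48.6), Fabp4 at 29.7 CPM in GFP replicate 4 (9.03 to 12.4) and Tat at 3518 CPM in GFP replicate 2 (2502 to 2668). Of the 9 cases, 4 were in Nudt7 replicate 3. No value of Car3, Car5a, Car14, Car8 or Car12 stood apart in this way.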

How the results depend on the processing

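The log2 fold change of Car3 stayed between 2.41 and 3.03 in all 14 alternatives. Its call was lost with no filter on low counts (2.62, adjusted p = 0.174 in edgeR). It was also lost with the trend of each library with transcript length removed (2.55, adjusted p = 0.0670 in edgeR). With limma-voom with sample weights it was lost too (2.44, adjusted p = 0.0508). It was lost as well in 6 of the 8 analyses that left out 1 library (2.41 to 2.67, adjusted p from 0.0626 to 0.188 in edgeR). It held with DESeq2 (2.63), RLE scaling (2.64), an offset for transcript length (2.72), and without Nudt7 replicate 2 or GFP replicate 3. With fewer livers the fit has fewer degrees of freedom; any further cause was not tested.

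Genes called higher over the whole table were 6, against 89 with DESeq2, 15 with no filter, 23 with the length trend removed, 58 with limma-voom, and 1 to 8 leaving out a library. Genes called lower were 10, against 64 with DESeq2, 6 with the length offset, 42 with limma-voom, and 1 to 12 leaving out a library. The cause was not tested.

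The Car3 share of summed TPM was 19.8% with GFP and 54.9% with Nudt7 when Car5a was left out of the sum, which removes part of the denominator; leaving out a library gave 12.9 to 15.6% and 43.1 to 48.1%. Car14 turned to −0.031 without GFP replicate 4 (−0.03 to 0.38 leaving out a library). Car2 ranged from 0.70 to 1.17, Car5a from 0.17 to 0.62, Car8 from 0.29 to 0.47 and Car12 from 0.31 to 0.71. No paired analysis was possible because the titles carry numbers that no 2 samples share and the replicate numbers only follow the accession order.

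Depth limits Car1, Car4, Car12 and Car13, which had at most 33 reads in a library. With 4 livers a group, the interval of Car5a (−0.25 to 1.0) leaves changes of that size undetected.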
